A study of Mus musculus with 5 samples.

Results

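The genes described here are 39 interferon-stimulated genes, chosen by name as a set, and all 39 were found by their Ensembl identifiers among the 30046 features of the count table. They were compared between stromal cells of 2 fetal origins. Cxcl12-GFP-high tdTomato+ cells were sorted from femurs of mice at postnatal day 21, whose mothers had received tamoxifen once at embryonic day 12.5, which switched on tdTomato permanently in cells with an active CreER. The Dlx5CE-E12.5 group has 3 libraries from Cxcl12(GFP/+); Dlx5(CreER/+); R26R(tdTomato/+) mice, in which perichondrial cells were marked, and the Fgfr3CE-E12.5 group has 2 libraries, numbered 2 and 3, from Cxcl12(GFP/+); Fgfr3-iCreER; R26R(tdTomato/+) mice, in which fetal chondrocytes were marked. All mice carried 1 GFP allele of *Cxcl12*, so both groups share that change, and each library was made from cells of pooled littermates. The labels do not tie libraries to separate litters, so p-values measure the spread between these libraries only. CreER marks the cells that use the driver gene at the time of the pulse, in whatever tissue, and the sort then keeps those that make much Cxcl12-GFP. The sources state that purity after the sort was not determined. Mice without the reporters or without tamoxifen, and mice given an interferon, were not part of these libraries, so every value is a comparison of 2 lineages and not with an unstimulated state.

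Interferons are cytokines that cells secrete after sensing foreign or misplaced nucleic acids. Type I interferon binds Ifnar1 and Ifnar2, and the kinases Jak1 and Tyk2 then activate a complex that contains Stat2 and Irf9 and binds interferon-stimulated response elements (ISRE) in promoters. Type II interferon, interferon gamma, acts through Ifngr1 and Ifngr2 on another element, the gamma-activated site (GAS), and the genes of both programs overlap widely. Their products block viral entry, RNA and protein synthesis, or attack the vacuoles in which microbes live, and many are made at a low level in the absence of infection.

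Library totals ran from 22035650 to 32563758 counts in Dlx5CE-E12.5 cells and from 56355203 to 58166285 in Fgfr3CE-E12.5 cells, and 3 counts corresponded to between 0.0516 and 0.136 counts per 1000000 (CPM). The methods of the study give paired-end reads on one sequencer for the Dlx5CE-E12.5 libraries and single-end reads on another for the Fgfr3CE-E12.5 libraries, whereas the series description names 1 sequencer for all. If the methods hold, sequencing and lineage cannot be told apart. The labelled stromal identity was checked on 10 marrow stromal markers, all detected. The largest in every library was *Cxcl12*, whose reporter was used for the sort, at 21254 to 22408 normalized CPM in Dlx5CE-E12.5 cells and 8067 and 5801 in Fgfr3CE-E12.5 cells. *Foxc1* was higher in Fgfr3CE-E12.5 cells, at 315 and 359 against 34.9 to 56.2. The summed level of the 10 markers, much of it *Cxcl12*, was 39829 to 41697 normalized CPM in the Dlx5CE-E12.5 libraries, 17089 in Fgfr3CE-E12.5 replicate 2 and 10090 in Fgfr3CE-E12.5 replicate 3. The sum of 10 pan-leukocyte markers ran the other way, from 374.8 to 461.1 normalized CPM in the Dlx5CE-E12.5 libraries to 1205 in Fgfr3CE-E12.5 replicate 2 and 2571 in Fgfr3CE-E12.5 replicate 3. Fewer cells of a type and less RNA per cell cannot be told apart in bulk samples. Neutrophil, monocyte and macrophage, T and NK, megakaryocyte, osteoblast, osteoclast and chondrocyte markers were likewise higher in the Fgfr3CE-E12.5 libraries in sum. The part of these shifts in the results below was not tested.

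Interferon-stimulated genes were higher in Dlx5CE-E12.5 cells across most roles. Of the 39 genes, 32 passed the filter of the study, which keeps protein-coding genes that reach a CPM of 10 in 2 or more of the 5 libraries. A gene was called when its Benjamini-Hochberg adjusted p was under 0.05 and its absolute log2 fold change (Fgfr3CE-E12.5 over Dlx5CE-E12.5) above 1 in edgeR's quasi-likelihood test over 10093 genes. By this rule 18 of the 32 were called higher in Dlx5CE-E12.5 cells, beside 13.1% of the genes tested. No member was called higher in Fgfr3CE-E12.5 cells, against 16.4% of all genes, and the count was also 0 at an unadjusted p under 0.05 in edgeR and with DESeq2. On adjusted p alone, 24 were higher in Dlx5CE-E12.5 cells (23.4% of all genes) and 0 in Fgfr3CE-E12.5 cells (25.0%). The median log2 fold change of the 32 was -1.23, beside 0.01 for all genes tested. The fold change was below 0 for 31 of the 32, *Rsad2* being the exception, beside 49.4% of all genes, and for 27 members every Dlx5CE-E12.5 library lay above every Fgfr3CE-E12.5 library, beside 34.1% of all genes. The reverse held for 0 of the 32, beside 34.8% of all genes. The count of 18 was 12 without Fgfr3CE-E12.5 replicate 3 and 9 without both that library and Dlx5CE-E12.5 replicate 1, a setting chosen after seeing the data. It was 4 when a change above 2-fold was itself tested. The number of all genes called changed in these settings too, so the 13.1% is not their background. Those numbers are given below, where the dependence on processing is described.

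**Figure D1:**
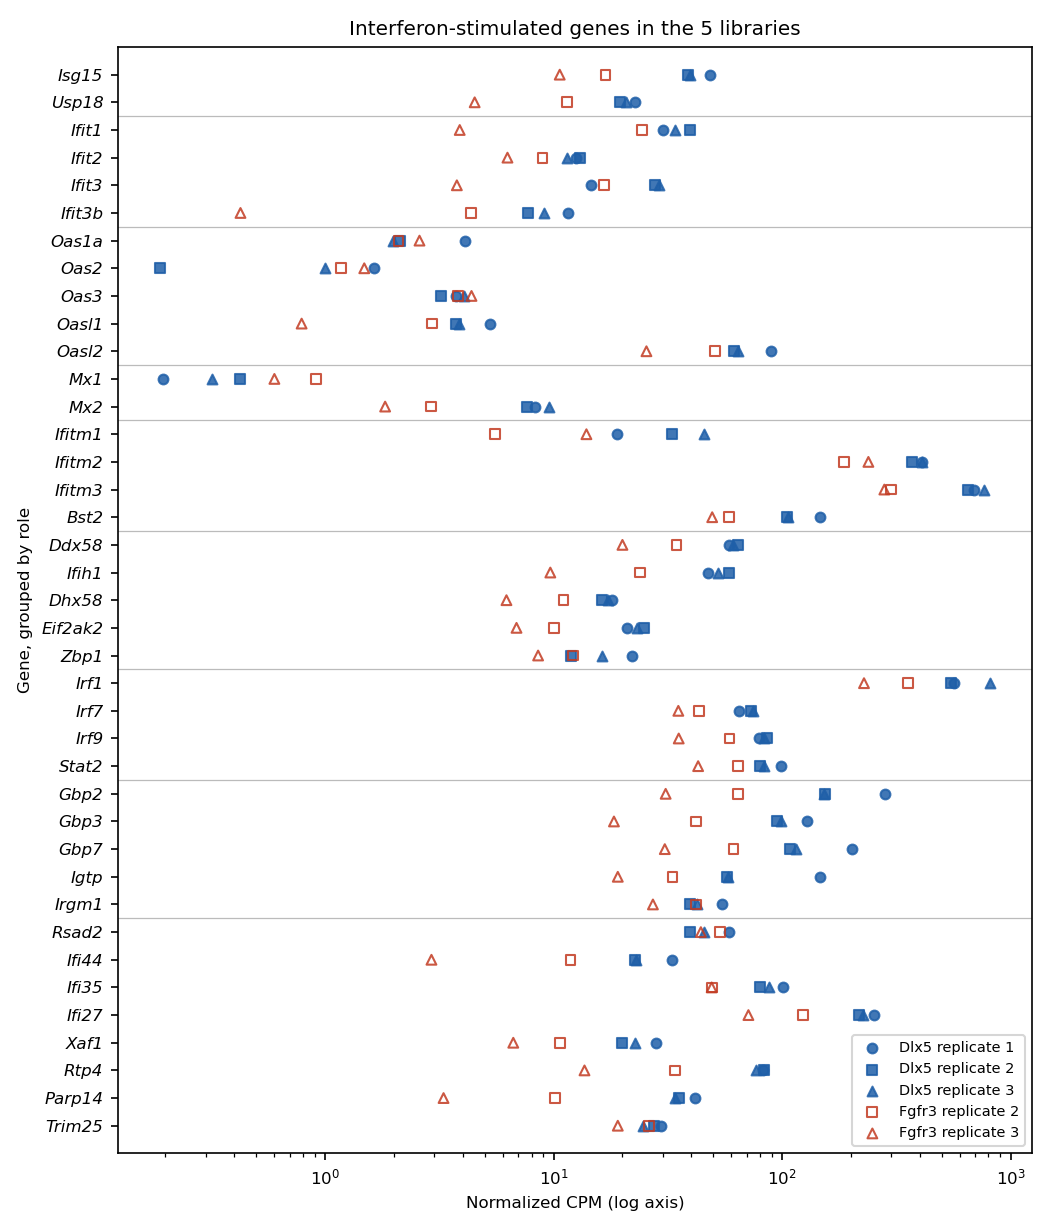
Level of each of the 39 genes in the 5 libraries, in normalized CPM on a log axis, with genes on the vertical axis in blocks by role. Filled blue symbols are Dlx5CE-E12.5 libraries and open red symbols Fgfr3CE-E12.5 libraries, and in most rows the red symbols lie to the left, with replicate 3 (triangle) leftmost in 29 of the 32 genes tested.

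The 7 members outside the main test, none with a CPM of 10 in more than 1 library, were *Ifit3b*, *Oas1a*, *Oas2*, *Oas3*, *Oasl1*, *Mx1* and *Mx2*. With a filter of 1 CPM in at least 2 libraries over all 16708 features that passed it, 38 members were tested and 19 were called higher in Dlx5CE-E12.5 cells, beside 22.5% of all features, and 0 in Fgfr3CE-E12.5 cells, beside 17.1%. The gene added was *Mx2*, which the annotation lists as a polymorphic pseudogene, and *Mx1* failed this filter as well.

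The promoters of the members were read for the letters of the ISRE and the GAS, since these are the elements through which both interferon types act. The RefSeq table for GRCm38.p6 holds 34 promoters, each from 250 bases before to 50 after the annotated start, for 30 of the 39 members. The ISRE was searched on both strands as a pair of GAAA letters in the same orientation with any 2 bases between them, and matches were present in 19 of the 34 (55.9%), each of a different gene, and in 3.43% of all 32817 promoters. The letters TTCNNNGAA, which read the same on both strands, were found in 9 of the 34 (26.5%) and in 8.29% of all promoters. Of the 19 members with ISRE letters, 16 were tested, 10 were called higher in Dlx5CE-E12.5 cells and the median log2 fold change was -1.28. Of the 11 without them, 10 were tested, 4 were called and the median was -0.88. Of all genes tested, 13.1% were called higher in Dlx5CE-E12.5 cells. Members without a promoter in the table, among them the called genes *Usp18*, *Ifi27*, *Rtp4* and *Parp14*, are in neither group. The groups were not tested against each other. A match is a description of the letters and not evidence that a factor binds there.

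**Figure D2:**
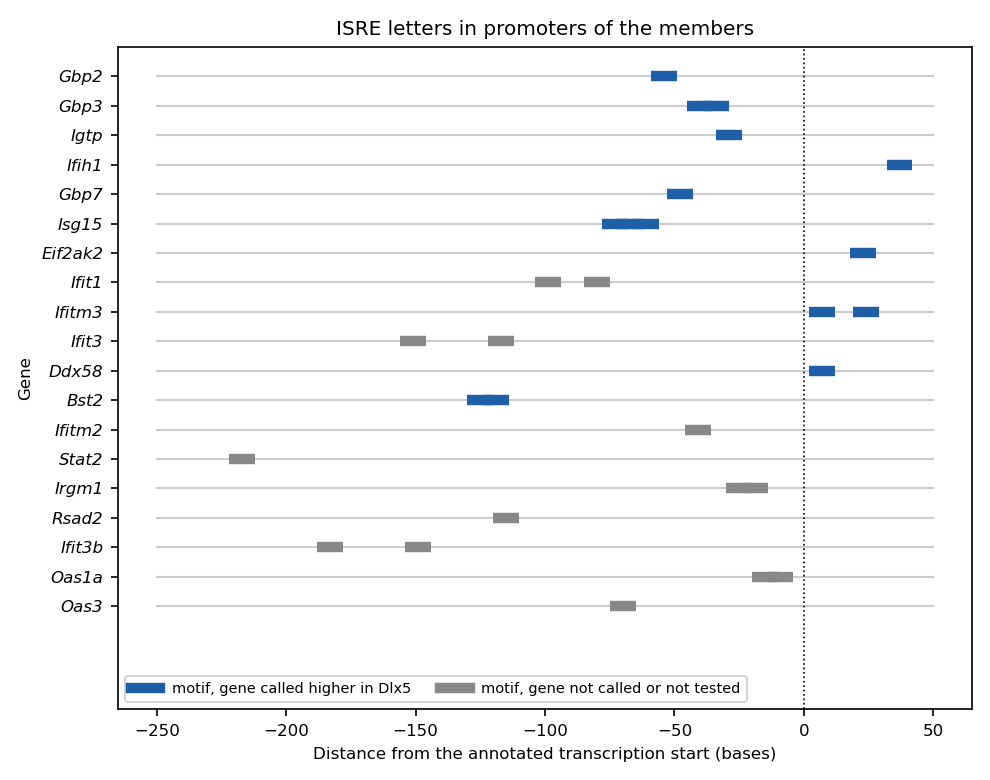
Position of ISRE letters in the promoters of 19 members, as distance in bases from the annotated transcription start (dotted line), ordered by log2 fold change with genes outside the main test at the bottom. Blue bars mark genes called higher in Dlx5CE-E12.5 cells and grey bars the others, and both colours occur before the start. In *Ifih1*, *Ddx58*, *Ifitm3* and *Eif2ak2* the letters begin 2 to 32 bases after it.

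The windows below, each of 100 bases and ending at or before the start, show these letters in capitals for called genes of different roles (Isg15, Bst2, Gbp2, Igtp), for the 2 tested IFIT genes that varied most between Fgfr3CE-E12.5 libraries (Ifit1, Ifit3) and for uncalled genes whose groups overlapped (Rsad2, Irgm1). They are written 5′ to 3′ on the strand of the gene, from GRCm38.p6.
Isg15, chr4:156200836-156200935, minus strand: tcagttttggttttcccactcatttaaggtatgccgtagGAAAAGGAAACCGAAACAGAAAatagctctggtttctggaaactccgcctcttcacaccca
Bst2, chr8:71537545-71537644, minus strand: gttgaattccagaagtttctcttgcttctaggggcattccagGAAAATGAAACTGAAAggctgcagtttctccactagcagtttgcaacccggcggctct
Gbp2, chr3:142620559-142620658, plus strand: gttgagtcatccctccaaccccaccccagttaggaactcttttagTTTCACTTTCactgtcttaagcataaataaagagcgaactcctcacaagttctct
Igtp, chr11:58199456-58199555, plus strand: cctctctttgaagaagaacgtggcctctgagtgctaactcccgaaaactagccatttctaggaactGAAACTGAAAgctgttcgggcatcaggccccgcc
Ifit1, chr19:34640749-34640848, plus strand: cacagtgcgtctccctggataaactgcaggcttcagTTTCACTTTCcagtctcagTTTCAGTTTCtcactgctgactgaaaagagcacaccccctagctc
Ifit3, chr19:34583345-34583444, plus strand: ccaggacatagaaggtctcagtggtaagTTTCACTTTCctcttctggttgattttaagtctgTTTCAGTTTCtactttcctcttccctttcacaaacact
Rsad2, chr12:26456518-26456617, minus strand: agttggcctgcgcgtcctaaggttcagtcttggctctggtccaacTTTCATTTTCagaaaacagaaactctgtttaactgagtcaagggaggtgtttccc
Irgm1, chr11:48871421-48871520, minus strand: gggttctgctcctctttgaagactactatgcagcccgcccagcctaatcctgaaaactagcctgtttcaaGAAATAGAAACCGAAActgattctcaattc
The *Isg15* window holds 3 overlapping matches, the first beginning 78 bases before the start, the *Bst2* window 2 overlapping matches from 130 bases before it, and the *Irgm1* window 2 from 30 bases before it. *Ifit1* and *Ifit3* each have 2 separate matches. The 100-base window of *Ifit3b*, the neighbouring copy of *Ifit3*, was letter for letter that of *Ifit3*. *Rsad2* had 1 match, 120 bases before the start, and *Irgm1* had 2, and neither gene was called.

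*Isg15* encodes a ubiquitin-like protein that is attached to other proteins after interferon exposure, and *Usp18* encodes the protease that removes it and dampens the type I receptor. Both fell in Fgfr3CE-E12.5 cells. *Isg15* (ENSMUSG00000035692, chromosome 4, 156199424 to 156200818, GRCm38) stood at 48.4, 38.8 and 39.4 normalized CPM in Dlx5CE-E12.5 replicates 1, 2 and 3 and at 16.9 and 10.6 in Fgfr3CE-E12.5 replicates 2 and 3. The groups did not overlap, and the level was 3.07-fold higher in Dlx5CE-E12.5 cells (log2 fold change -1.62, standard error 0.25, adjusted p = 0.002, edgeR). *Usp18* (chromosome 6, 121245906 to 121270917) stood at 22.7, 19.5 and 20.6 normalized CPM in Dlx5CE-E12.5 cells and at 11.4 and 4.51 in Fgfr3CE-E12.5 cells. It was 2.63-fold higher in Dlx5CE-E12.5 cells (log2 fold change -1.40, standard error 0.39, adjusted p = 0.0231, edgeR). *Isg15* was called in all 17 settings of the test run on single members, the settings without 1 or 2 libraries included, whereas *Usp18* lost its call without Fgfr3CE-E12.5 replicate 3, with a log2 fold change of -0.82, and without Dlx5CE-E12.5 replicate 1, where the adjusted p was 0.054 (edgeR).

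The IFIT proteins recognise the ends of foreign RNA and block its translation, and their genes form a cluster on chromosome 19. None of the 3 tested was called by edgeR, and 1 had an unadjusted p under 0.05. *Ifit1* (chromosome 19, 34640871 to 34650009) stood at 30.0, 39.6 and 33.8 normalized CPM in Dlx5CE-E12.5 cells and at 24.5 and 3.88 in Fgfr3CE-E12.5 cells. All Dlx5CE-E12.5 values lay above both Fgfr3CE-E12.5 values, but the Fgfr3CE-E12.5 libraries differed 6.30-fold from each other. The log2 fold change was -1.28 with a standard error of 0.66 (adjusted p = 0.151, edgeR).

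*Ifit3* showed the same split, with 16.6 and 3.77 normalized CPM in the Fgfr3CE-E12.5 libraries and 14.5, 27.8 and 29.0 in the Dlx5CE-E12.5 libraries, so its groups overlapped (log2 fold change -1.22, standard error 0.61, adjusted p = 0.143, edgeR). Its neighbour *Ifit3b* stood at 11.6, 7.72 and 9.03 normalized CPM in Dlx5CE-E12.5 cells and at 4.35 and 0.426 in Fgfr3CE-E12.5 cells, where replicate 3 had only 27 counts (log2 fold change -1.89, adjusted p = 0.0997, edgeR with the filter of 1 CPM). Of all 50-base windows in *Ifit3* transcripts, 51.2% also occur in *Ifit3b*, so the division of reads between these copies is uncertain. *Ifit2* was the most even of the family, at 11.5 to 13.05 normalized CPM in Dlx5CE-E12.5 cells and 6.28 to 8.94 in Fgfr3CE-E12.5 cells (log2 fold change -0.70, adjusted p = 0.0571, edgeR). Without Fgfr3CE-E12.5 replicate 2, *Ifit1* and *Ifit3* were called, with log2 fold changes of -3.07 and -2.58.

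The OAS enzymes make the second messenger that activates RNase L, and the Mx proteins are GTPases that trap viral nucleocapsids. All but *Oasl2* were of low abundance. *Oas2* had between 4 and 94 counts a library and *Mx1* between 6 and 56, and *Oas1a*, *Oas2* and *Oas3* overlapped between lineages at 0.188 to 4.37 normalized CPM (adjusted p from 0.492 to 0.85, edgeR with the filter of 1 CPM). *Oas1a* shares 57.6% of its 50-base windows with *Oas1g*. *Oasl2* was the only OAS gene in the main test, at 89.2, 61.4 and 63.8 normalized CPM in Dlx5CE-E12.5 cells against 50.8 and 25.5 in Fgfr3CE-E12.5 cells (log2 fold change -0.91, adjusted p = 0.0514, edgeR).

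*Oasl1* stood at 5.25, 3.72 and 3.86 normalized CPM in Dlx5CE-E12.5 cells and at 2.94 and 0.789 in Fgfr3CE-E12.5 cells, without overlap but without a call (log2 fold change -1.10, adjusted p = 0.153, edgeR with the filter of 1 CPM). *Mx2*, by contrast, was at 8.32, 7.63 and 9.59 normalized CPM in Dlx5CE-E12.5 cells and at 2.91 and 1.83 in Fgfr3CE-E12.5 cells. Under the same filter it was called (log2 fold change -1.74, standard error 0.32, adjusted p = 0.00413, edgeR), with groups that did not overlap. *Mx1*, the family's other member, lay the other way, at 0.196, 0.424 and 0.318 normalized CPM in Dlx5CE-E12.5 cells and at 0.910 and 0.599 in Fgfr3CE-E12.5 cells. It was the one member of the 39 with both Fgfr3CE-E12.5 libraries above every Dlx5CE-E12.5 library, and it failed both filters.

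The IFITM proteins sit in cell membranes and hinder viral fusion, and *Bst2* encodes tetherin, which holds budding virions at the cell surface. All 4 had an adjusted p under 0.05 with levels higher in Dlx5CE-E12.5 cells, and 3 were called. *Ifitm3* (chromosome 7, 141009586 to 141010770) stood at 694, 651 and 762 normalized CPM in Dlx5CE-E12.5 cells and at 299 and 280 in Fgfr3CE-E12.5 cells. Libraries of 1 lineage were close together, and the level was 2.42-fold higher in Dlx5CE-E12.5 cells (log2 fold change -1.28, standard error 0.15, adjusted p = 0.000747, edgeR). *Ifitm2* (chromosome 7, 140954837 to 140955987) stood at 410, 371 and 410 normalized CPM against 186 and 239, and its log2 fold change of -0.90 was below the fold threshold (standard error 0.16, adjusted p = 0.0042, edgeR). It shares 48.5% of its 50-base windows with other genes, chiefly the overlapping gene Gm45717.

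*Ifitm1* (chromosome 7, 140967221 to 140969825) was the least even of the family, at 18.9, 32.8 and 45.5 normalized CPM in Dlx5CE-E12.5 cells and at 5.54 and 13.9 in Fgfr3CE-E12.5 cells. Its groups did not overlap (log2 fold change -1.73, standard error 0.50, adjusted p = 0.0254, edgeR), and it was 1 of only 2 tested members, with *Ifitm2*, that were higher in Fgfr3CE-E12.5 replicate 3 than in replicate 2. *Bst2* (chromosome 8, 71534255 to 71537456) stood at 146, 105 and 106 normalized CPM in Dlx5CE-E12.5 cells and at 58.4 and 49.4 in Fgfr3CE-E12.5 cells, 2.21-fold higher in the former (log2 fold change -1.14, standard error 0.20, adjusted p = 0.00321, edgeR). The *Ifitm1* call was lost without Dlx5CE-E12.5 replicate 2 or 3 (adjusted p = 0.0586 in both, edgeR) and without Fgfr3CE-E12.5 replicate 2 (adjusted p = 0.11, edgeR). *Bst2* fell just under the fold threshold, at -0.97, without Dlx5CE-E12.5 replicate 1 or without Fgfr3CE-E12.5 replicate 3, and *Ifitm2* just past it, at -1.03, without the latter.

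The cytosolic RNA sensors RIG-I (*Ddx58*) and MDA5 (*Ifih1*) start interferon production, LGP2 (*Dhx58*) tunes them, PKR (*Eif2ak2*) halts translation on foreign RNA, and *Zbp1* senses nucleic acids in the Z form. *Ifih1* (chromosome 2, 62595798 to 62646255) stood at 47.5, 58.4 and 52.2 normalized CPM in Dlx5CE-E12.5 cells and at 23.8 and 9.67 in Fgfr3CE-E12.5 cells, 3.15-fold higher in the former (log2 fold change -1.65, standard error 0.37, adjusted p = 0.00945, edgeR). *Eif2ak2* (chromosome 17, 78852564 to 78882573) stood at 20.9, 24.9 and 23.1 normalized CPM against 10.1 and 6.88, a 2.71-fold difference (log2 fold change -1.44, standard error 0.24, adjusted p = 0.0029, edgeR). *Ddx58* (chromosome 4, 40203773 to 40239828) stood at 58.3, 64.2 and 61.1 normalized CPM against 34.5 and 20.0 (log2 fold change -1.17, standard error 0.24, adjusted p = 0.00708, edgeR). In these 3 genes the Dlx5CE-E12.5 libraries lay within a narrow band and the groups did not overlap. *Dhx58* missed the fold threshold by little, with a log2 fold change of -0.99 (adjusted p = 0.0263, edgeR), and *Zbp1* overlapped between lineages (log2 fold change -0.70, adjusted p = 0.108, edgeR). Without Fgfr3CE-E12.5 replicate 3, the log2 fold change of *Ddx58* was -0.77 and it was not called, and without Fgfr3CE-E12.5 replicate 2 *Dhx58* was called, at -1.39.

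The 4 members that encode transcription factors all passed on adjusted p, and 1 was called. *Irf1*, which responds to interferon gamma through a GAS and drives further interferon-stimulated genes, was the most abundant of them. It lies on chromosome 11, 53770014 to 53778374, and stood at 565, 549 and 816 normalized CPM in Dlx5CE-E12.5 cells and at 357 and 228 in Fgfr3CE-E12.5 cells. Each Dlx5CE-E12.5 library was above both Fgfr3CE-E12.5 libraries, and the level was 2.199-fold higher (log2 fold change -1.14, standard error 0.27, adjusted p = 0.0123, edgeR). *Stat2* and *Irf9*, both parts of the complex that binds the ISRE, had log2 fold changes of -0.71 and -0.81 (adjusted p = 0.0282 and 0.0225, edgeR). *Irf7*, which amplifies type I interferon production, had one of -0.86 (adjusted p = 0.0045, edgeR). None of these 3 genes overlapped between lineages and none reached the fold threshold. *Irf1* was not called without Dlx5CE-E12.5 replicate 3 (log2 fold change -0.93) or without Fgfr3CE-E12.5 replicate 3 (-0.79), and *Irf9* was called without Fgfr3CE-E12.5 replicate 2 (-1.15). *Irf9* overlaps exons of *Rnf31*, and *Irf1*, *Irf7*, *Usp18*, *Eif2ak2*, *Dhx58*, *Gbp2*, *Oasl1* and *Ifi35* overlap genes on the other strand. The strand setting of the counting is not given in the sources used here, so reads of such pairs cannot be told apart.

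Guanylate-binding proteins and immunity-related GTPases gather on the vacuoles of intracellular microbes, and the first of these are among the genes most responsive to interferon gamma. Of the 5 members, 4 were called and their median log2 fold change was -1.74. *Gbp2* (ENSMUSG00000028270, chromosome 3, 142620602 to 142638008) stood at 281, 154 and 152 normalized CPM in Dlx5CE-E12.5 cells and at 63.9 and 30.9 in Fgfr3CE-E12.5 cells, 4.13-fold higher in the former (log2 fold change -2.05, standard error 0.41, adjusted p = 0.00621, edgeR). *Gbp3* (chromosome 3, 142560026 to 142573209) stood at 128, 94.7 and 99.4 normalized CPM against 41.9 and 18.4, a 3.57-fold difference (log2 fold change -1.83, standard error 0.36, adjusted p = 0.00546, edgeR). *Gbp7* (chromosome 3, 142530342 to 142550149) stood at 202, 108 and 115 normalized CPM against 61.2 and 30.7, a 3.09-fold difference (log2 fold change -1.63, standard error 0.39, adjusted p = 0.0125, edgeR). In all 3, Dlx5CE-E12.5 replicate 1 was the highest library and Fgfr3CE-E12.5 replicate 3 the lowest.

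*Igtp* (chromosome 11, 58199556 to 58207591) had the widest spread of the 5 within the Dlx5CE-E12.5 group, at 146, 57.3 and 58.2 normalized CPM, and stood at 33.1 and 19.1 in Fgfr3CE-E12.5 cells (log2 fold change -1.74, standard error 0.49, adjusted p = 0.0226, edgeR). *Irgm1*, a regulator of the other immunity-related GTPases, overlapped between lineages at 39.6 to 54.4 and 27.2 to 42.1 normalized CPM (log2 fold change -0.39, adjusted p = 0.213, edgeR). *Gbp2* and *Gbp3* were called in all 17 settings, whereas *Gbp7* and *Igtp* were not called without Fgfr3CE-E12.5 replicate 3 (adjusted p = 0.071 and 0.144, edgeR). *Igtp* shares 11.8% of its 50-base windows with the overlapping gene *Irgm2*, and *Gbp7* 12.7% with other genes.

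Among the 8 other effectors, 5 were called, and *Parp14* had the largest fold change of the 32 tested members. *Parp14* (ENSMUSG00000034422, chromosome 16, 35832874 to 35871544), an ADP-ribosyltransferase, stood at 41.4, 35.2 and 33.8 normalized CPM in Dlx5CE-E12.5 cells and at 10.2 and 3.30 in Fgfr3CE-E12.5 cells. That is 5.48-fold higher in Dlx5CE-E12.5 cells (log2 fold change -2.45, standard error 0.46, adjusted p = 0.00479, edgeR), and it was called in all 17 settings. *Rtp4* (chromosome 16, 23520291 to 23614222), which limits flavivirus replication, stood at 82.8, 83.4 and 76.8 normalized CPM against 33.9 and 13.6, a 3.41-fold difference (log2 fold change -1.77, standard error 0.36, adjusted p = 0.00684, edgeR). *Ifi44* (chromosome 3, 151730922 to 151749960) stood at 33.1, 22.7 and 22.99 normalized CPM against 11.8 and 2.92, with a log2 fold change of -1.83 but a standard error of 0.56 (adjusted p = 0.0318, edgeR). Its Fgfr3CE-E12.5 libraries differed 4.06-fold, and it was not called without Dlx5CE-E12.5 replicate 1 (adjusted p = 0.0782, edgeR) or replicate 2 (adjusted p = 0.0547, edgeR).

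*Xaf1* (chromosome 11, 72301629 to 72313733), an antagonist of the caspase inhibitor XIAP, stood at 28.2, 19.9 and 22.7 normalized CPM in Dlx5CE-E12.5 cells and at 10.7 and 6.66 in Fgfr3CE-E12.5 cells (log2 fold change -1.44, standard error 0.28, adjusted p = 0.00584, edgeR). *Ifi27* (chromosome 12, 103434211 to 103440239) stood at 252, 216 and 227 normalized CPM against 123 and 71.2 (log2 fold change -1.25, standard error 0.24, adjusted p = 0.00555, edgeR), and it was not called without Fgfr3CE-E12.5 replicate 3, at -0.85. The groups of both genes did not overlap. *Ifi35* passed on adjusted p alone, at -0.86 (adjusted p = 0.00359, edgeR), and the ubiquitin ligase *Trim25*, which activates RIG-I, was not called, at -0.27 (adjusted p = 0.306, edgeR). *Rsad2*, whose product viperin makes a chain-terminating nucleotide, stood apart from the others at 58.6, 39.4 and 45.6 normalized CPM in Dlx5CE-E12.5 cells and 53.6 and 44.1 in Fgfr3CE-E12.5 cells. The groups overlapped, and the log2 fold change of 0.03 was smaller than its standard error of 0.20 (adjusted p = 0.921, edgeR).

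**Figure D3:**
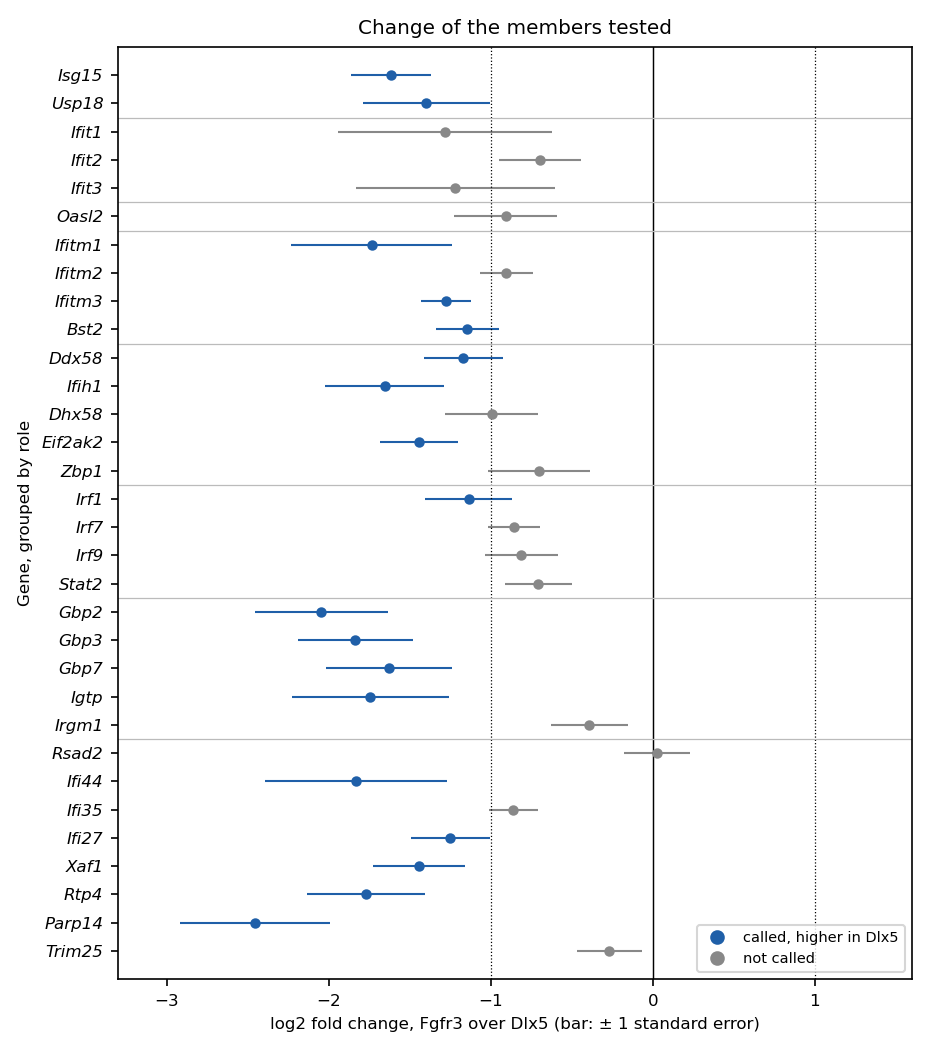
Log2 fold change (Fgfr3CE-E12.5 over Dlx5CE-E12.5) of the 32 members tested, in blocks by role, with bars of 1 standard error from the edgeR fit and dotted lines at the fold threshold. The 18 called genes (blue) all lie left of -1, from -1.14 to -2.45, and no gene lies right of 0.03.

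Per kilobase of exon, the order of the most abundant members was the same in both lineages. In Dlx5CE-E12.5 cells it was *Ifitm3* at 1036 normalized CPM per kb, *Ifitm2* at 606, *Irf1* at 162, *Ifi27* at 158 and *Bst2* at 132. In Fgfr3CE-E12.5 cells the same 5 stood at 427, 324, 73.6, 66.3 and 59.7 normalized CPM per kb. *Mx1* was the lowest in both, at 0.0826 and 0.199 normalized CPM per kb, so the members spanned several orders of magnitude in each lineage. *Rsad2* moved most in rank among the 39, from place 20 in Dlx5CE-E12.5 cells to place 10 in Fgfr3CE-E12.5 cells, on nearly equal levels of 11.0 and 11.3 normalized CPM per kb.

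The members varied together between libraries of 1 lineage as well. Fgfr3CE-E12.5 replicate 3 was below replicate 2 in 30 of the 32 members tested, beside 51.5% of all genes, and was the lowest of the 5 libraries in 29, beside 31.3% of all genes. The median ratio of replicate 2 to replicate 3 was 1.64 over the members and 1.01 over all genes. The stromal marker sum fell, and the pan-leukocyte sum rose, in the same library order. Between the same 2 libraries the chondrocyte sum fell from 3133 to 475 normalized CPM and the megakaryocyte sum from 71.4 to 16.8. The neutrophil sum rose from 7098 to 17541 and the monocyte and macrophage sum from 1487 to 3381. The part of these shifts in this spread was not tested. Relative to the mean of the Dlx5CE-E12.5 libraries, the median member lay at -0.87 on the log2 scale in replicate 2 and at -1.53 in replicate 3, so both libraries were below the Dlx5CE-E12.5 libraries, whose medians ran from -0.10 to 0.12.

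In the Dlx5CE-E12.5 group, replicate 1 was the highest of the 5 libraries in 19 of the 32 members, beside 19.0% of all genes. All 5 GTPase genes were highest there, with a median ratio of 1.81 to the mean of replicates 2 and 3, and *Igtp* had the largest ratio, 2.53. *Gbp3* and *Irgm1*, at 1.32 and 1.33, lay below some members outside this group, such as *Zbp1* at 1.56 and *Ifi44* at 1.45. Of the 8 other effectors, 7 were also highest in replicate 1. Over the 27 members outside the GTPase group the median ratio was 1.08, with a ratio below 1 in 10 of them, the lowest being those of *Ifit3* and *Ifitm1*, at 0.511 and 0.483. Replicate 1 had the highest sums of B lineage markers (445.5 normalized CPM against 163.5 and 165.1) and of erythroid markers (36380 against 17852 and 23490) in its group. The same held for T and NK markers (24.2 against 14.7 and 9.39) and pan-leukocyte, marrow stromal, endothelial, osteoblast, chondrocyte and megakaryocyte markers. It did not hold for neutrophil, monocyte and macrophage, osteoclast or plasmacytoid dendritic cell markers. In Fgfr3CE-E12.5 replicates 2 and 3, where all 5 GTPase genes were below Dlx5CE-E12.5 replicate 1, T and NK sums were 39.1 and 88.2 normalized CPM. B lineage sums were 408.2 and 711.0 there, and erythroid sums 13925 and 20707. The part of these cells in the difference between Dlx5CE-E12.5 libraries was not tested. Without Dlx5CE-E12.5 replicate 1, 15 members were called and the median log2 fold change was -1.21.

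**Figure D4:**
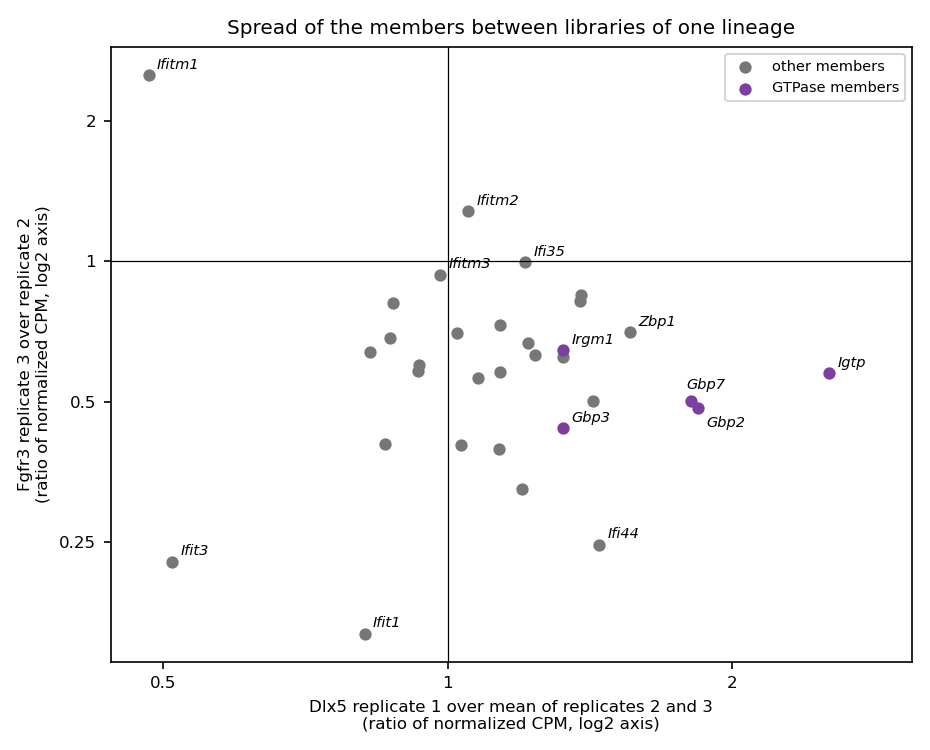
Ratio of Fgfr3CE-E12.5 replicate 3 to replicate 2 (vertical) against the ratio of Dlx5CE-E12.5 replicate 1 to the mean of replicates 2 and 3 (horizontal) for the 32 members tested, as ratios of normalized CPM on log2 axes. Nearly all points lie below the line at 1, and *Ifitm1* and *Ifitm2* lie above it. The GTPase genes (purple) lie right of 1, with *Igtp* at 2.53, but *Gbp3* (1.32) and *Irgm1* (1.33) lie left of other members such as *Zbp1* (1.56).

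The other genes of the interferon pathway did not follow the members as a block. Of 17 interferon ligand and receptor genes, 9 were among the features and 5 were tested, all receptors, and none was called by edgeR, while 3 had an unadjusted p under 0.05. Most type I and type III ligands of the list were not analysed here. *Ifng* had 0 counts in every Dlx5CE-E12.5 library and 8 and 53 counts in the Fgfr3CE-E12.5 libraries. The type I receptor chain *Ifnar2* stood at 293, 278 and 329 normalized CPM in Dlx5CE-E12.5 cells and at 169 and 140 in Fgfr3CE-E12.5 cells, with a log2 fold change of -0.96 just under the threshold (standard error 0.16, adjusted p = 0.00268, edgeR). *Ifnar1* and *Ifngr1* had smaller differences in the same direction (log2 fold changes -0.48 and -0.54, adjusted p = 0.0167 and 0.0141, edgeR), and *Ifngr2* one of 0.19 (adjusted p = 0.297, edgeR).

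Of 18 genes for signalling and its brakes, all tested, 0 were called higher in Dlx5CE-E12.5 cells by edgeR, with 5 at an unadjusted p under 0.05, and 5 (27.8%) were called higher in Fgfr3CE-E12.5 cells, beside 13.1% and 16.4% of all genes tested. These 5 were the corepressors *Irf2bp1* (log2 fold change 2.79) and *Irf2bp2* (1.70), the phosphatase *Ptpn6* (2.35), which is abundant in blood cells, and the factors *Irf5* (1.21) and *Irf8* (1.01), which myeloid cells express. *Ptpn6* was at 27.6 to 35.7 normalized CPM in Dlx5CE-E12.5 cells and at 93.9 and 221 in Fgfr3CE-E12.5 replicates 2 and 3, the order of the pan-leukocyte sums. *Irf8* (67.8 and 91.6), *Irf5* (30.2 and 35.9) and *Irf2bp1* (53.1 and 73.6) followed that order too, whereas *Irf2bp2* (231 and 205) did not. The part of leukocyte RNA in these values was not tested.

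Of 21 genes for nucleic acid sensing, 16 were tested, 4 (25%) were called higher in Dlx5CE-E12.5 cells, beside 13.1% of all genes tested, and 0 in Fgfr3CE-E12.5 cells, beside 16.4% (edgeR, with 2 in that direction at an unadjusted p under 0.05), and the median log2 fold change was -0.03. *Samhd1*, which degrades nucleotides and so limits reverse transcription, stood at 579, 536 and 515 normalized CPM against 236 and 179 (log2 fold change -1.39, standard error 0.18, adjusted p = 0.000939, edgeR). *Trex1*, the exonuclease that clears cytosolic DNA, had a log2 fold change of -2.12 (adjusted p = 0.000628, edgeR), but 95.8% of its 50-base windows occur also in transcripts of *Atrip*. The endosomal RNA sensor *Tlr3* had one of -1.28 and the ubiquitin ligase *Trim56* one of -1.02. Of the 4 tested genes for ISG15 conjugation, none was called (edgeR, 1 in each direction at an unadjusted p under 0.05), and the activating enzyme *Uba7* had a log2 fold change of -0.60 (adjusted p = 0.00997, edgeR).

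A list of 90 further interferon-inducible genes, of which 88 were among the features and 54 were tested, had calls in both directions. In it 20 genes (37.0%) were called higher in Dlx5CE-E12.5 cells, beside 13.1% of all genes tested, and 7 (12.96%) higher in Fgfr3CE-E12.5 cells, beside 16.4%, and its median log2 fold change was -0.47. With the filter of 1 CPM over all features, 74 were tested and the median was -0.19. There 19 were called higher in Dlx5CE-E12.5 cells, beside 22.5% of all features, and 15 in Fgfr3CE-E12.5 cells, beside 17.1%. The lean toward Dlx5CE-E12.5 cells was thus smaller under that filter. The chemokine gene *Cxcl9* had the largest change, at 251, 30.3 and 30.3 normalized CPM in Dlx5CE-E12.5 cells and at 13.4 and 3.36 in Fgfr3CE-E12.5 cells. It was called with a wide error (log2 fold change -3.64, standard error 1.19, adjusted p = 0.04, edgeR), and Dlx5CE-E12.5 replicate 1 was 8.26-fold above the mean of the other two. *Iigp1*, an immunity-related GTPase, was likewise at 1033, 268 and 271 normalized CPM against 119 and 36.5 (log2 fold change -2.75, standard error 0.80, adjusted p = 0.0265, edgeR). *Trim12a* was at 14.7 to 18.5 normalized CPM in the Dlx5CE-E12.5 libraries and at 3.69 and 0.268 in the Fgfr3CE-E12.5 libraries (log2 fold change -3.11, standard error 0.91, adjusted p = 0.0266, edgeR).

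The Schlafen genes *Slfn1*, *Slfn2* and *Slfn4*, which leukocytes express, were the genes of this list with the largest changes toward Fgfr3CE-E12.5 cells, with log2 fold changes of 2.87, 2.86 and 2.86. *Slfn2* was at 9.86 to 12.4 normalized CPM in Dlx5CE-E12.5 cells, at 43.5 in Fgfr3CE-E12.5 replicate 2 and at 122 in replicate 3. All 3 were higher in replicate 3, the library with the higher pan-leukocyte sum, and the part of leukocyte RNA in them was not tested. The members, in contrast, were lower in that library in 30 of 32 cases.

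**Figure D5:**
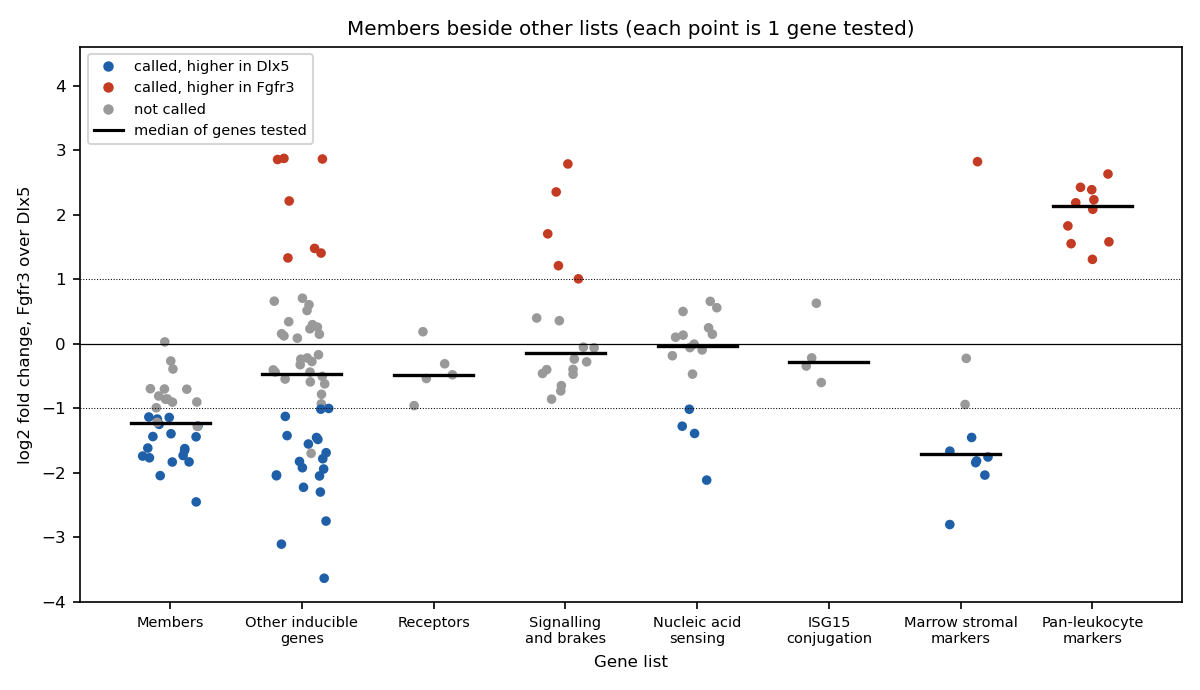
Log2 fold change (Fgfr3CE-E12.5 over Dlx5CE-E12.5) of each gene tested in the 39-gene set (members), in 5 further lists of interferon pathway genes, and in 2 marker lists, with a black line at each median and dotted lines at the fold threshold. The members' median is -1.23, that of the other inducible genes -0.47, that of the marrow stromal markers -1.71 and that of the pan-leukocyte markers 2.13.

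The members' median of -1.23 lay between that of all genes and that of the 10 marrow stromal markers, which was -1.71 with 7 called higher in Dlx5CE-E12.5 cells and 1, *Foxc1*, higher in Fgfr3CE-E12.5 cells. In all 10 pan-leukocyte markers the call was for higher levels in Fgfr3CE-E12.5 cells. The sum of 10 plasmacytoid dendritic cell markers, a cell type known for type I interferon, was 385.5 to 396.0 normalized CPM in Dlx5CE-E12.5 libraries and 351.6 to 356.4 in Fgfr3CE-E12.5 libraries, but most of it came from *Runx2* and *Tcf4*, which stromal cells also express. The defining marker *Siglech* was at 0.398 to 1.14 normalized CPM in Dlx5CE-E12.5 libraries and at 2.88 and 5.36 in Fgfr3CE-E12.5 replicates 2 and 3. With the filter of 1 CPM, 9 of the 10 markers were tested, 3 were called higher in Fgfr3CE-E12.5 cells and 0 in Dlx5CE-E12.5 cells (edgeR), and the median log2 fold change was 1.20. The part of such cells in the members' values was not tested. No gene of any marker list was at 0 in all libraries.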

How the data were processed

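RNA of sorted cells was amplified with a SMART-Seq kit and made into libraries with Nextera XT, from 3 Dlx5CE-E12.5 and 2 Fgfr3CE-E12.5 pools of littermates. The submitters' processing notes name mm10, TopHat2 2.0.13, Bowtie2 2.2.1 and HTSeq, without roles or a strand setting. The authors deposited raw read counts per Ensembl gene and reporter sequence, which were used, besides depth-normalized and rlog tables, which were not. Of 30046 features, 29996 identifiers were found in GENCODE M21 (GRCm38), 45 were not and 5 are reporters. Counts were normalized by TMM and tested with edgeR 4.0.16 (R 4.3.3, limma 3.58.1) for the 17115 protein-coding genes and the reporters reaching a CPM of 10 in 2 or more of 5 libraries, adjusted over all 10093 tested. The filter and thresholds follow the study. The annotation, TMM scaling and the quasi-likelihood test were choices made here, with the study's exact test as an alternative. DESeq2 1.42.0 was another. Normalized CPM are counts per 1000000 of the TMM-scaled library size. Standard errors are the absolute log2 fold change over the square root of F. Relative levels per library used a pseudocount of 0.5. Shared sequence was the share of 50-base windows of a gene's transcripts found in another gene's.

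The 39 members, the pathway lists, the marker lists and the tests were chosen with earlier results of these data known. Named were all called members, those without overlap and with an absolute log2 fold change above 1 under the filter of 1 CPM, the receptors, and up to 6 called genes of a pathway list by size of change. Depth was 22035650 to 58166285 counts, and floors of 3 counts cover counting error only. Standard errors come from the edgeR fit and include the spread between libraries. Tables and figures were made with Python 3 scripts. Alternatives were other normalizations, tests, filters and fold thresholds, the replicate number as a block, removal of trends on GC content or transcript length, and each library left out in turn. The result of 1 gene of the signalling list is not reported here.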

Additional observations from a re-analysis of the deposited data

How the results depend on the processing

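Members called higher in Dlx5CE-E12.5 cells numbered 18 with DESeq2 size factors, the exact test, DESeq2's Wald test, no filter and all features. They numbered 19 with a filter of 1 CPM on protein-coding genes, after a GC trend was removed and after a length trend was removed. That filter added *Dhx58*, whereas the filter of 1 CPM over all features added *Mx2* and did not call *Dhx58*. Library size alone gave 15, and leaving 1 library out gave 12 to 22, the lowest without Fgfr3CE-E12.5 replicate 3. No setting run called a member higher in Fgfr3CE-E12.5 cells. The median log2 fold change of the members ran from -0.83 to -1.48 with 1 library left out and was -0.78 with both Dlx5CE-E12.5 replicate 1 and Fgfr3CE-E12.5 replicate 3 left out, a setting chosen after seeing the data. That setting gave 9 members, 2 and 3 pathway genes (higher in Dlx5CE-E12.5 and in Fgfr3CE-E12.5 cells) and, of all 9149 genes tested, 1067 and 1023. Library size alone moved the median of all genes from 0.01 to 0.22 and the calls from 1320 and 1655 to 1010 and 1988 (higher in Dlx5CE-E12.5 and in Fgfr3CE-E12.5 cells), and *Bst2*, *Ddx58* and *Irf1* lost their calls. When a change above 2-fold was tested, 4 members (*Isg15*, *Gbp2*, *Gbp3*, *Parp14*), 5 and 3 other inducible genes, 2 and 3 pathway genes, and 659 and 1013 of all genes were called, which follows from the stricter hypothesis. Without a fold threshold, 24 members and 10 pathway genes were higher in Dlx5CE-E12.5 cells, and 2365 and 2520 of all genes were called. Among protein-coding genes, other inducible genes higher in Fgfr3CE-E12.5 cells numbered 12 with a filter of 1 CPM and 12 without a filter, where more genes are tested. With 1 library left out, other inducible genes numbered 11 to 21 and 4 to 7, pathway genes 2 to 5 and 3 to 5, and all genes 1029 to 1465 and 997 to 1682, and the lowest of these values came without Fgfr3CE-E12.5 replicate 3. *Rsad2* turned negative after removal of the length trend (-0.10), without Dlx5CE-E12.5 replicate 2 (-0.10) or 3 (-0.01) and without Fgfr3CE-E12.5 replicate 2 (-0.04). *Trim25* ranged from -0.44 to 0.00197 with 1 library left out, turning positive without Fgfr3CE-E12.5 replicate 3, and was 0.079 with both libraries left out, where *Irgm1* turned positive too (0.11), and the cause was not tested. With both left out, *Xaf1* also lost its call, and removal of the length trend ended those of *Ifitm3*, *Bst2* and *Ifi27*.

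The replicate numbers 2 and 3 occur in both lineages but do not mark shared animals or days in the labels. Deviations of same-numbered libraries from their group means correlated at 0.13 (number 2) and -0.05 (number 3) across genes. The deviations of the 2 Fgfr3CE-E12.5 libraries mirror each other, so these values cannot decide whether same-numbered libraries share animals or days. With the replicate block, 19 members were called higher in Dlx5CE-E12.5 cells, *Bst2* not being called and *Ifit3* and *Dhx58* being added, and 1386 and 1681 of all genes were called. The libraries were deep enough that 3 counts lay below 0.14 CPM, so the number of libraries, and for *Mx1* and *Oas2* the low count, limits precision.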

Other observations

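Several genes outside the 39 showed the pattern of the GTPase members and of some other members, with Dlx5CE-E12.5 replicate 1 above the other libraries of its group. They were chosen for it after their values were seen. *Tgtp2* was at 263, 89.5 and 67.3 normalized CPM in Dlx5CE-E12.5 cells, *Gbp6* at 89.5, 42.1 and 38.9, and *Ifi47* at 155, 75.4 and 83.9, and each was called higher in Dlx5CE-E12.5 cells (log2 fold changes -2.23, -2.05 and -1.48, adjusted p = 0.0263, 0.0124 and 0.0103, edgeR). *Tgtp1*, which shares most of its sequence with *Tgtp2*, went the other way within the group, at 4.05, 17.0 and 12.6 normalized CPM, so the division of reads between the 2 copies is uncertain. *Cxcl10*, a chemokine induced by both interferon types, was at 40.2, 20.3 and 20.0 normalized CPM in Dlx5CE-E12.5 cells and at 13.8 and 2.76 in Fgfr3CE-E12.5 cells, and was not called (adjusted p = 0.0743, edgeR). *Gbp5*, at 20.7, 17.5 and 21.4 normalized CPM in Dlx5CE-E12.5 cells, lacked that pattern but was called as well (log2 fold change -1.83, adjusted p = 0.00796, edgeR). The guanylate-binding genes were divided too. *Gbp4* and *Gbp8*, outside the main test, were called higher in Fgfr3CE-E12.5 cells with the filter of 1 CPM (log2 fold changes 2.47 and 1.76, adjusted p = 0.019 and 0.0434, edgeR). *Gbp4* was at 7.54, 4.33 and 2.78 normalized CPM in Dlx5CE-E12.5 cells and at 9.02 and 40.9 in Fgfr3CE-E12.5 cells. *Gbp9*, *Gbp10* and *Gbp11* were not called under that filter.

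The Schlafen family was divided. *Slfn1*, *Slfn2* and *Slfn4* were called higher in Fgfr3CE-E12.5 cells, whereas *Slfn5* and *Slfn8*, also named after their values were seen, were called higher in Dlx5CE-E12.5 cells. *Slfn5* was at 23.7, 37.4 and 39.97 normalized CPM in Dlx5CE-E12.5 cells and at 13.8 and 5.73 in Fgfr3CE-E12.5 cells (log2 fold change -1.78, adjusted p = 0.0119, edgeR). *Slfn8* was at 21.5, 21.8 and 20.6 normalized CPM against 8.16 and 2.93 (log2 fold change -1.94, adjusted p = 0.00888, edgeR). Both were lower in Fgfr3CE-E12.5 replicate 3 than in replicate 2, as most of the 39 genes were, and *Slfn1*, *Slfn2* and *Slfn4* were higher there.

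The exoribonuclease gene *Xrn1* and the galectin-binding glycoprotein gene *Lgals3bp*, also named after their values were seen, had large changes with little spread among the Dlx5CE-E12.5 libraries. *Xrn1* was at 48.8, 53.2 and 47.7 normalized CPM in Dlx5CE-E12.5 cells and at 13.4 and 10.9 in Fgfr3CE-E12.5 cells (log2 fold change -2.04, standard error 0.17, adjusted p = 0.000194, edgeR). *Lgals3bp* was at 1034, 999 and 992 normalized CPM against 348 and 184 (log2 fold change -1.92, standard error 0.28, adjusted p = 0.00169, edgeR).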
